A study of Canis lupus familiaris with 30 samples.

Results

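The transcripts described here are those of 9 cytosolic ribosomal protein genes, RPS27A, RPSA, RPS14 and RPS10 of the small subunit, RPLP0 of the stalk, and RPL3, RPL10A, RPL27 and RPL18 of the large subunit. Every non-control probe whose RefSeq transcript belongs to one of these genes was taken, which gave 17 probes of the 43603 on the array and 9 of the 1353 genes that could be named there. RPSA had 4 probes, RPLP0 had 3, RPS14, RPL3 and RPL27 had 2 each, and the other genes 1. A gene's value is that of its brightest probe, and other probes are given beside it for some of the results only. The samples were peripheral blood mononuclear cells (PBMC), the white cells left after density centrifugation of blood, from adult dogs fed a diet of raw red meat, high in protein and fat (meat, 7 dogs) or a premium kibble that contains carbohydrate (kibble, 8 dogs), bled at weeks 0, 3, 6 and 9. RNA of the samples was set pairwise, in Cy3 and Cy5, on 30 Agilent 2-colour arrays. The 8 groups were meat at weeks 0, 3, 6 and 9 and kibble at weeks 0, 3, 6 and 9.

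The ribosome is built from a small subunit, which reads the messenger RNA, and a large subunit, which joins the amino acids. Its proteins are made in matched amounts, and in mammals their messenger RNAs share a 5′ tract of pyrimidines through which mTOR signalling controls their translation. In blood, resting lymphocytes carry abundant ribosomal protein messenger RNA, so these transcripts are among the brightest on an array of white cells. Ribosomal protein genes also have many processed pseudogenes in mammals, and a probe may read such a copy as well as the gene it is named for.

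On 14 arrays meat was set against kibble within a week, 3 arrays each at weeks 0 and 3 and 4 each at weeks 6 and 9. On the other 16 arrays 2 weeks of 1 diet were compared, week 6 with week 3 or week 9 with week 0, 4 arrays for each pair and diet. No array joined weeks 0 and 9 to weeks 3 and 6. Each week had its own slide of diet arrays, on which week and slide cannot be told apart, and all week arrays of a diet had the same dye order. A group was read in 7 or 8 channels although 6 biological replicates are stated in the labels, and the dog behind a channel is not given. The p-values therefore measure the spread between arrays. Counted per array, 20085 to 42703 probes in Cy3 and 19416 to 43411 in Cy5 were well above background, and precision is limited by the number of arrays. The Cy3 background of 1 array (kibble 0/kibble 9 replicate 1) had a median of 160.5 units, against 18.0 on the lowest array.

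All 17 ribosomal probes were well above background in 60 of 60 channels, and all 17 passed the filter that left 31691 probes to be tested. Their mean log2 signal over the arrays lay between 15.4 and 17.5, against a median of 7.85 for all tested probes. Of the tested probes 329 (1.04%) were as bright as the dimmest of them or brighter. A spot of RPL10A was marked as faulty on 1 array of week 6 against week 3 on kibble, so RPL10A rests on 29 arrays. Markers of the expected cells were measured as well. The T cell genes CD4 and CD28, the B cell gene MS4A1 and the monocyte gene CD163 stood above background in 60 of 60 channels, but so did the platelet gene ITGA2B.

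At week 6, 4 of the 9 genes had higher signal in meat-fed than in kibble-fed dogs and 0 had lower, at an adjusted p under 0.05 in limma. Of all probes tested 6.59% passed in that comparison, 2.87% of them higher and 3.72% lower. The 4 were RPS27A and RPSA of the small subunit and RPL3 and RPL10A of the large subunit. The median over the 9 genes was log2 0.19, with 8 of 9 above 0, against 0.00 over all probes. In bulk RNA, more cells of a type and more RNA per cell cannot be told apart.

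RPS27A encodes a fusion of ubiquitin with a small-subunit protein, and the ubiquitin is cleaved off after translation. Its meat over kibble log2 ratio, adjusted for dye, was 0.51 and 0.58 on the 2 week 6 arrays with the meat sample in Cy5 and 0.17 and 0.37 on the 2 with the meat sample in Cy3. After the dye adjustment all 4 arrays thus put meat above kibble. The fitted difference was log2 0.45 ± 0.08 (SE, adjusted p = 0.0028), which is 36.7% more. RPSA, a small-subunit protein also known as the laminin receptor, had ratios of 0.51, 0.40, 0.09 and 0.13 on the same arrays. Here too each array lay above 0, with the 2 arrays that had meat in Cy5 above the other 2. Before the dye adjustment the 2 arrays with meat in Cy3 lay below 0 (-0.09 and -0.05). The fitted value was 0.33 ± 0.07 (adjusted p = 0.0059), and the other 3 RPSA probes gave 0.33, 0.32 and 0.23, each with an adjusted p under 0.05.

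RPS14, a protein of the small-subunit platform whose loss of 1 copy is tied to the anaemia of the human 5q- syndrome, had week 6 ratios of 0.36, 0.16, -0.11 and 0.01. RPS10, which lies near the entry of the messenger RNA channel, had 0.17, 0.21, -0.10 and 0.05. For both genes the arrays straddled 0, and their fitted values of 0.17 ± 0.07 and 0.09 ± 0.05 did not pass (adjusted p = 0.155 and 0.242). RPLP0, the scaffold of the stalk that recruits elongation factors, had 0.18, 0.18, -0.11 and 0.21 and a fitted 0.13 ± 0.06 (adjusted p = 0.231). A single array lay below 0 there.

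RPL3, which reaches into the peptidyl transferase centre, had week 6 ratios of 0.36, 0.13, 0.24 and 0.26, and all 4 arrays lay above 0. It was higher in meat-fed dogs by 0.24 ± 0.06 (adjusted p = 0.017), and its other probe gave 0.23. RPL10A, a protein of the L1 stalk, had 0.49, 0.34, -0.04 and 0.17, so that 3 of 4 arrays lay above 0. Its fitted value was 0.27 ± 0.07 (adjusted p = 0.029). RPL27, a large-subunit protein, had 0.31, 0.34, 0.00 and -0.02, which follows the dye order, and its 0.19 ± 0.07 did not pass (adjusted p = 0.082). RPL18, also of the large subunit, stood apart with -0.43, 0.01, -0.64 and 0.14, and its -0.25 ± 0.11 did not pass either (adjusted p = 0.171).

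**Figure D1:**
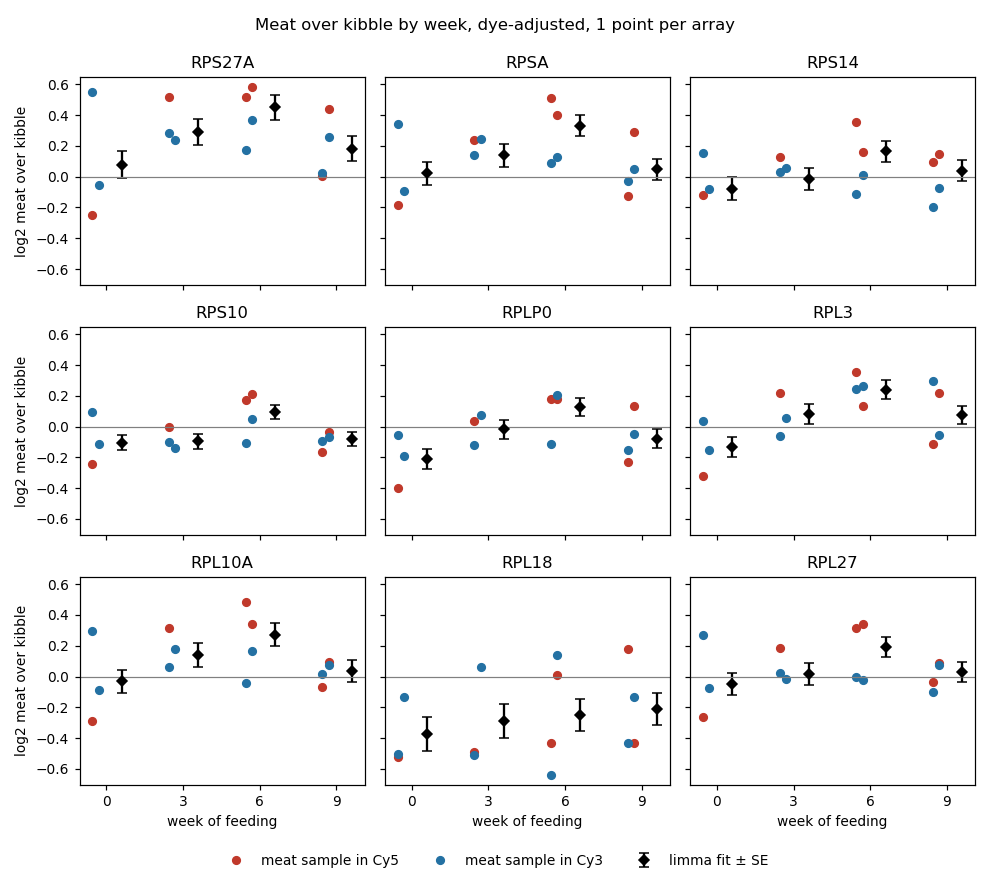
Log2 ratio of meat over kibble (vertical axis) at weeks 0, 3, 6 and 9 (horizontal axis) for each gene. Circles are single arrays after subtraction of the gene's dye term, coloured by the dye of the meat sample, and diamonds with bars are limma estimates ± SE. RPS27A has its highest estimate at week 6 (0.45), while the points of RPL18 fall into a low and a high set at each of weeks 0, 3, 6 and 9.

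The 4 week 6 calls depended on single choices. Without kibble 6/meat 6 replicate 1 only RPS27A was called, with median centring in place of loess 0 of 9 passed (RPS27A at 0.61, adjusted p = 0.093), without a dye term 0 of 9, and with the 14 diet arrays alone 0 of 9, a fit in which 0 of 31691 probes passed. The median over the 9 genes stayed above 0 in 49 of 49 alternatives, between 0.11 and 0.35.

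At week 3 only RPS27A passed, as a gene higher in meat-fed dogs, where 6.09% of all probes passed (2.27% higher and 3.82% lower). Its ratios were 0.52 on the array with meat in Cy5 and 0.28 and 0.24 on the 2 with meat in Cy3, all above 0. The fitted value was 0.29 ± 0.09 (adjusted p = 0.0465), and the call was lost in 30 of 49 alternatives, so it stood at the edge of the threshold. The other 8 genes lay between -0.29 and 0.14. At week 9 the ratios of RPS27A were 0.01, 0.44, 0.02 and 0.26, again above 0 on 4 of 4 arrays. Its fitted 0.18 ± 0.08 did not pass (adjusted p = 0.396), and 0 of 9 genes were called at week 9, with 0.524% of all probes called. An unadjusted p under 0.05 was found for 1 of the 9, against 3466 of all 31691 probes.

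Week 0 was the start of the experiment. There 0 of 9 genes passed, with 0.312% of all probes called. An unadjusted p under 0.05 was found for 3 of the 9, against 2874 of all 31691 probes. RPS27A had ratios of -0.25, 0.55 and -0.06 on the 3 arrays, RPSA had -0.19, 0.35 and -0.09 and RPL10A had -0.29, 0.30 and -0.09. In each of these genes a single array, meat 0/kibble 0 replicate 1, lay above 0. Over the 9 genes the median log2 difference, meat minus kibble, ran from -0.08 (week 0) through 0.02 (week 3) and 0.19 (week 6) to 0.04 (week 9). Of these medians only that of week 6 kept its sign in every alternative run. Over 49 alternatives the week 0 median lay between -0.31 and 0.03, that of week 3 between -0.13 and 0.14 and that of week 9 between -0.05 and 0.23, with the 2 ends given by median centring and by leaving out the dye term.

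As a mean over weeks 3, 6 and 9, meat-fed dogs were higher in 4 of the 9 genes and lower in 1, beside 15.8% of all probes called (7.37% higher and 8.38% lower). RPS27A had a ratio above 0 on 11 of 11 arrays of these weeks, and RPSA and RPL10A on 9 of 11. RPL10A was higher by 0.15 ± 0.05 (adjusted p = 0.031) and RPL3 by 0.13 ± 0.04 (adjusted p = 0.021). At 0.31 the estimate for RPS27A amounts to 23.8% more RNA signal, and that call was kept in 47 of 48 alternatives, the exception being median centring. RPL10A kept its call in 36 of 48. RPS14, RPS10, RPLP0 and RPL27 lay between -0.03 and 0.08 and did not pass. Leaving out 1 array changed the count to between 2 and 5. The lowest count of 2 came without kibble 3/meat 3 replicate 1 or without kibble 6/meat 6 replicate 1, and without kibble 9/meat 9 replicate 2 it was 3.

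RPL18 behaved unlike the other 8 genes on the diet arrays. Its ratios at week 0 were -0.52, -0.50 and -0.13, and -0.49, -0.51 and 0.07 followed at week 3. At week 9 they were 0.18, -0.43, -0.43 and -0.13, after the week 6 values given above. On 8 of the 14 arrays the ratio was below -0.4, on 6 it was above -0.2, and 0 arrays lay between. The highest of the low set was -0.43 and the lowest of the other was -0.13, and arrays of both sets occurred at each week and, over the weeks, in both dye orders. The fitted difference was already -0.37 ± 0.11 at week 0 (adjusted p = 0.188), and it was -0.29, -0.25 and -0.21 at the 3 weeks that followed. The mean over weeks 3, 6 and 9 was lower in meat-fed dogs (-0.25 ± 0.07, adjusted p = 0.013), a call lost in 4 of 48 alternatives. Among the 4 settings that ended it, 2 leave out a single array, kibble 3/meat 3 replicate 1 or kibble 6/meat 6 replicate 1, without which the estimate was -0.22 in either case.

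The spread over arrays also differed by kind of array. Each SD was taken over all arrays of a kind, so it holds differences between the comparisons as well as between replicate arrays. RPL18 had an SD of 0.283 on the 14 diet arrays and 0.162 on the 16 week arrays, a ratio of 1.74. RPS27A had 0.256 on diet arrays and 0.133 on week arrays, a ratio of 1.93. Over all tested probes the median ratio was 0.934. RPS14 (0.728) and RPL27 (0.948) were the genes of the 9 with a smaller SD over the diet arrays than over the week arrays. Within single comparisons, however, the SD of RPS14 was 0.05 to 0.20 on diet arrays and 0.07 to 0.17 on week arrays. That of RPL27 was 0.09 to 0.27 and 0.08 to 0.17. The diet arrays were read in the second of 2 scan sessions and the week arrays in the first, so kind of array and session cannot be told apart.

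**Figure D2:**
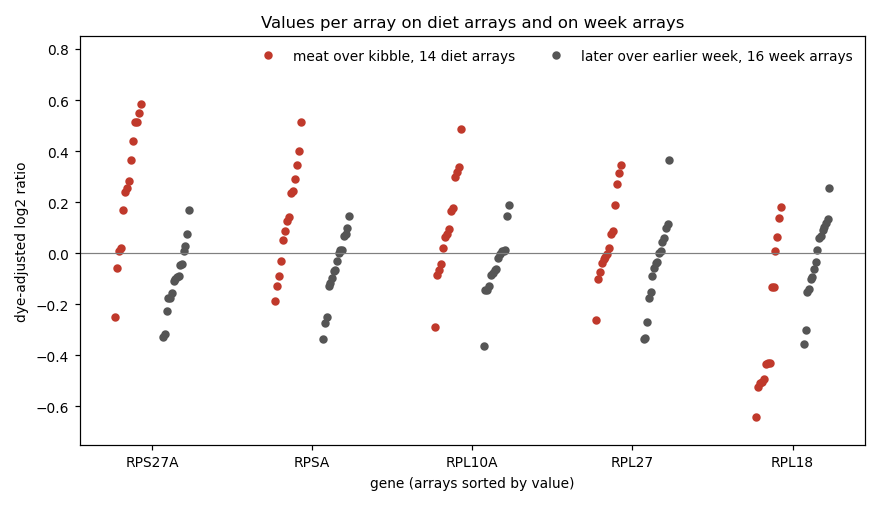
Dye-adjusted log2 ratios (vertical axis) of 5 genes (horizontal axis) on single arrays, sorted by value, with the 14 diet arrays (meat over kibble) left of the 16 week arrays (later over earlier week, 15 for RPL10A). For RPL18 the diet arrays leave a gap between -0.43 and -0.13 that its week arrays fill.

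Changes between weeks within a diet did not pass for any of the 9 genes in the main fit. For week 6 against week 3 on kibble 0 of 9 genes passed, where 0.104% of all probes did, yet 9 of 9 estimates were below 0 with a median of -0.17. An unadjusted p under 0.05 was found for 5 of the 9, against 5453 of all 31691 probes. RPS14 was at -0.45, -0.41, -0.30 and -0.29 on the 4 arrays, and RPL27 at -0.34, -0.33, -0.27 and -0.17. Both genes were thus lower at week 6 on 4 of 4 arrays after the dye adjustment. All 4 arrays had week 6 in Cy5, so their agreement does not check the dye term. Before the adjustment RPS14 was higher at week 6 on each of them. Without a dye term the median over the 9 genes was -0.06. The subtracted dye term was fitted over both scan sessions. Fitted by session, it was 0.55 in the first, which held these arrays, and 0.76 in the second for RPS14. For RPL27 it was 0.08 and 0.19. With the lower terms of the first session the ratios of both genes would be less negative. The fitted values of RPS14 and RPL27, -0.30 ± 0.07 (adjusted p = 0.070) and -0.24 ± 0.07 (adjusted p = 0.095), did not pass. With array weights 3 of the 9 were called, all lower at week 6. After the dye adjustment RPS27A, RPSA, RPS10 and RPLP0 also lay below 0 on 4 of 4 of these arrays and RPL10A on the 3 that measured it. RPL3 and RPL18 lay on both sides of 0.

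For week 6 against week 3 on meat the same genes lay around 0 in the main fit. The median over the 9 was -0.02 (above 0 in 8 of 48 alternatives), and the estimates ran between -0.12 and 0.09. Without a dye term the median was -0.11, and with median centring it was 0.25. These arrays all had week 6 in Cy3, the reverse of the kibble arrays, so the contrast with kibble depends on the dye term. On meat 0 of 9 passed, with 2.18% of all probes called. An unadjusted p under 0.05 was found for 0 of the 9, against 5866 of all 31691 probes. The diet difference at week 6 minus that at week 3 was above 0 in 9 of 9 genes, between 0.04 (RPL18) and 0.19 (RPSA). None of the 9 passed (adjusted p between 0.521 and 0.960), nor did any of the 31691 probes (0%). An unadjusted p under 0.05 was found for 5 of the 9, against 2873 of all probes. The diet difference at week 6 minus the mean of that at weeks 0, 3 and 9 ran between 0.04 (RPL18) and 0.27 (RPS27A). There 8 of 9 genes had an unadjusted p under 0.05, against 2055 of all 31691 probes. After adjustment 0 of 9 genes and 0 of 31691 probes passed (adjusted p = 0.758 for 8 genes and 0.962 for RPL18). A week 6 difference larger than at the other weeks was therefore not shown by this test.

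For week 9 against week 0, 0 of 9 genes passed on meat, where 8.27% of all probes did, and 0 of 9 on kibble, where 15.1% did. Estimates on meat ran between -0.04 (RPS27A) and 0.10 (RPL27), with 0 at an unadjusted p under 0.05, against 7011 of all 31691 probes. On kibble they ran between -0.14 (RPS27A) and 0.05 (RPS10). There RPL3 (-0.13) alone of the 9 had an unadjusted p under 0.05, against 9048 of all 31691 probes. The dye-adjusted ratios of RPS27A were -0.23, -0.18, -0.09 and -0.09 on the 4 kibble arrays, below 0 on each. These arrays all had week 9 in Cy5, and before the adjustment RPS27A was higher at week 9 on each. On meat its dye-adjusted ratios lay on both sides of 0. The diet difference at week 9 minus that at week 0 was between 0.03 and 0.20 and did not pass in any of the 9 (adjusted p between 0.465 and 0.952) or of the 31691 probes. Median centring moved the kibble estimates to a median of -0.55 with 8 of 9 called lower, so for these bright probes that comparison depends on the normalisation within arrays.

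**Figure D3:**
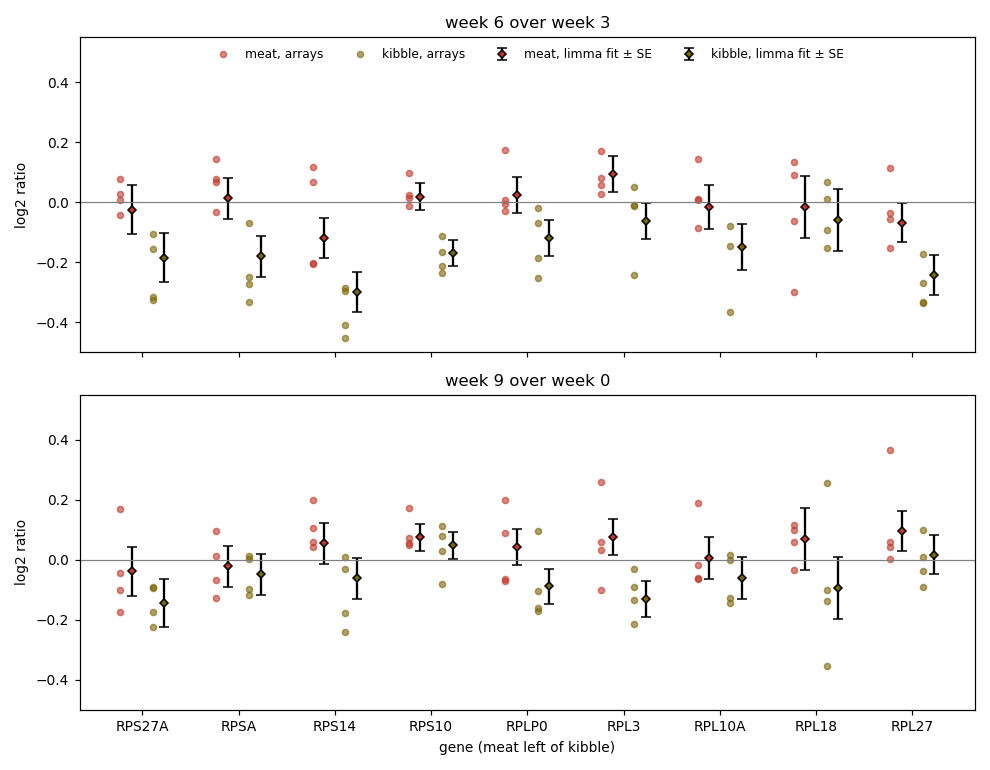
Log2 ratio of the later over the earlier week (vertical axis) for the 9 genes (horizontal axis), week 6 over week 3 in the upper panel and week 9 over week 0 in the lower, meat left of kibble. Circles are single dye-adjusted arrays and diamonds with bars limma estimates ± SE. For week 6 over week 3 the kibble estimates of all 9 genes lie below 0, with RPS14 lowest (-0.30).

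The signal of these genes also depended on the dye. The dye term, the log2 excess of Cy5 over Cy3 for the same RNA, was above 0 and passed in 9 of 9 genes, where 21.3% of all probes passed (11.9% higher in Cy5 and 9.37% lower). RPS14 had the largest at 0.68 ± 0.03 (adjusted p = 6.4e-14), then RPS10 at 0.34 ± 0.02 (adjusted p = 1.3e-11) and RPS27A at 0.24 ± 0.04 (adjusted p = 3.3e-05). The other 6 lay between 0.13 and 0.20.

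Before the dye adjustment, the meat over kibble ratio of RPS14 was between 0.57 and 1.04 on the 6 diet arrays with meat in Cy5 and between -0.88 and -0.53 on the 8 with meat in Cy3. RPS10 ran between 0.09 and 0.55 with meat in Cy5 and between -0.47 and -0.24 with meat in Cy3. In these 2 genes the dye orders did not overlap, and the sign of the unadjusted ratio followed the dye on every diet array. RPS27A at week 6 was at 0.75 and 0.82 with meat in Cy5, and at -0.07 and 0.13 with meat in Cy3. Its dye orders overlapped over the weeks. RPSA at week 6 was at 0.58 and 0.69 with meat in Cy5 and at -0.09 and -0.05 with meat in Cy3. Its unadjusted sign thus followed the dye at that week. In the same order, RPL10A was at 0.49 and 0.63 and at -0.19 and 0.02. RPL3 was at 0.27 and 0.49 and at 0.11 and 0.13, above 0 in both dye orders.

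The dye term belonged to the probe as much as to the gene. The other RPS14 probe had 0.18, against 0.68 for the brightest. Of RPLP0's other probes 1 was lower in Cy5 (-0.10, adjusted p = 0.0080), while its brightest was higher by 0.13. Over the 17 probes 12 were higher in Cy5 and 1 lower. The dye terms of the second scan session minus those of the first were not called for any of the 9 genes (0.00947% of all probes called). The largest was 0.21 ± 0.06 for RPS14 (0.76 in the second session and 0.55 in the first), so a difference between sessions is not excluded. With the processed signals that Feature Extraction writes, already dye-normalised, 2 of 9 genes were called, RPS14 and RPS10, and the signs of RPL10A, RPL3 and RPLP0 turned.

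**Figure D4:**
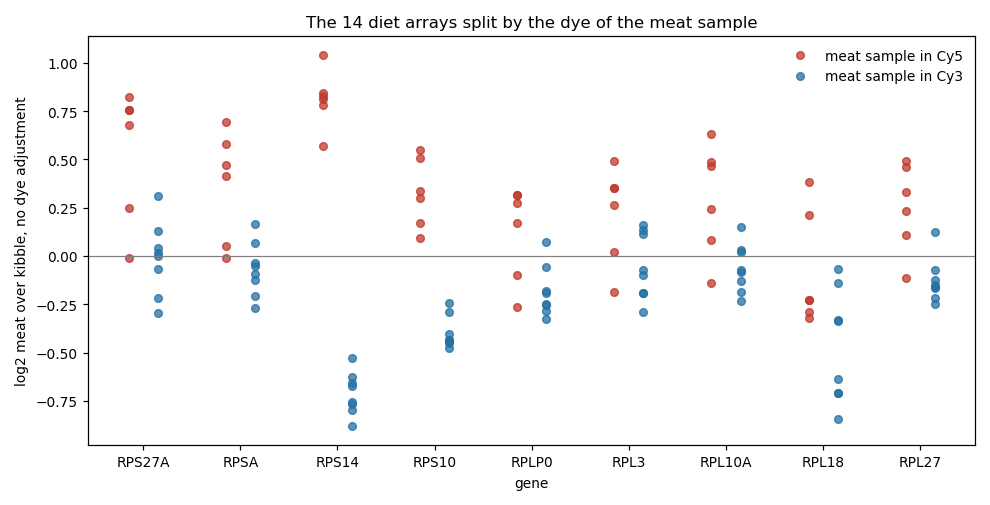
Log2 ratio of meat over kibble before dye adjustment (vertical axis) on the 14 diet arrays for the 9 genes (horizontal axis), 1 point per array, with the 6 arrays that had the meat sample in Cy5 left of the 8 that had it in Cy3. RPS14 (0.57 to 1.04 and -0.88 to -0.53) and RPS10 (0.09 to 0.55 and -0.47 to -0.24) separate fully by dye.

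After dye adjustment the genes moved together across arrays. Over the 36 pairs of the 9 genes, Pearson's r of the ratios had a median of 0.55 (lowest -0.43, highest 0.92), with 31 pairs above 0 and 23 above 0.5, over 30 arrays (29 for RPL10A). These values are a description, since the ratios on an array share its 2 samples, its slide and its normalisation at the bright end. The closest were RPS27A with RPSA (0.92), RPSA with RPL10A (0.92) and RPS27A with RPL10A (0.89). RPL27 with RPL10A (0.84) and RPL27 with RPS14 (0.82) came next. RPL18 was the exception, with a median r of -0.15 to the other 8 genes, from -0.43 with RPS27A to 0.39 with RPLP0.

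The median r was 0.59 on the diet arrays and 0.41 on the week arrays, and 0.57 for the residuals of the fit, from which diet, week and dye are removed. Without the 2 arrays that stood apart in background or number of bright probes it was 0.59. Against the tested probes outside the 17, the median r of each gene was between -0.03 and 0.00. Probes of the same gene moved together at r between 0.71 (RPS14) and 0.98 (RPL3). The estimates of the other probes shared the sign of the brightest in between 9 (an RPLP0 probe) and 12 of 12 comparisons of diet or week.

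**Figure D5:**
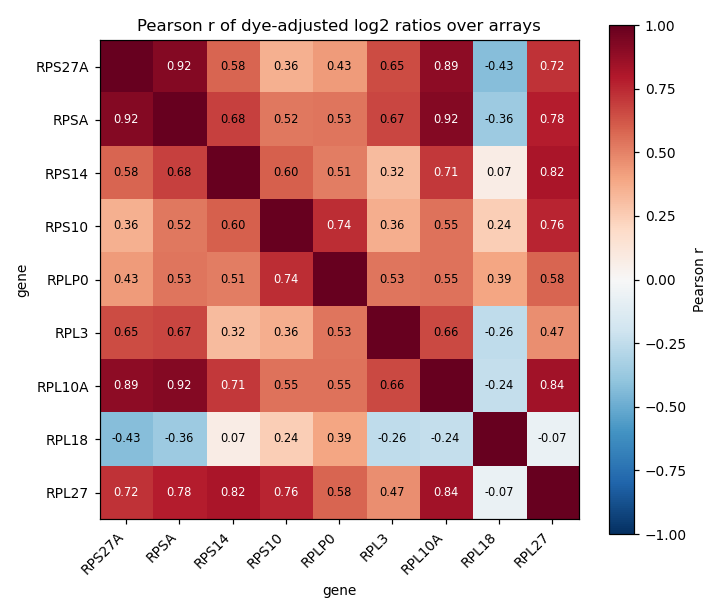
Pearson's r between the dye-adjusted log2 ratios of each pair of the 9 genes (both axes) over 30 arrays, 29 for RPL10A, with red above 0 and blue below. RPS27A, RPSA and RPL10A form the closest group (0.89 to 0.92), and RPL18 is below 0 with 5 of the other 8 genes.

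Among 1078 other named genes ranked by how closely their ratios followed the mean of the 9, ribosomal protein genes took ranks 1, 2, 3 and 6. The rest of the first 10 were not ribosomal protein genes. RPL12 (r = 0.84), RPS18 (0.83) and RPL23 (0.78) led, followed by SNRPG, a core spliceosomal protein (0.73), EEF1A1, the elongation factor that delivers aminoacyl-tRNA (0.69), and RPL21 (0.69). LDHB, a lactate dehydrogenase subunit (0.68), SMN (0.67), FMC1 (0.67) and CD52, a surface glycoprotein of lymphocytes (0.66), completed the first 10.

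The level of each gene per group was also read as log2 signal of single channels. Group means spanned 0.20 (RPLP0) to 0.47 (RPL18). In the order of the 8 means, neighbouring groups did not differ beyond the SD of their channels in any of the 9 genes, but that SD holds the dye difference, so this does not show equal levels. RPS27A was ordered by diet, with means of 16.84, 16.83, 16.79 and 16.69 in meat at weeks 0, 3, 6 and 9 and 16.66, 16.57, 16.58 and 16.63 in kibble at the same weeks (SD 0.14 to 0.27, n = 7 or 8 channels). Its 4 meat groups thus ranked above its 4 kibble groups, week 0 included. On the week arrays, however, the channels of weeks 0 and 3 were Cy5 for meat and Cy3 for kibble, and RPS27A was brighter in Cy5. Its dye-adjusted ratios at week 0 were -0.25, 0.55 and -0.06. RPL18 had 15.70, 15.48, 15.56 and 15.73 in meat and 15.87, 15.63, 15.86 and 15.94 in kibble (SD 0.12 to 0.41), lower in meat at each week. In the other 7 genes the diets interleaved. Channel levels carry the dye and array differences that the ratios remove.

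Another 11 cytosolic ribosomal protein genes had a RefSeq name on the array, among them RPL4, RPL7, RPL7A, RPL12, RPL21, RPL23, RPL37, RPS4X and RPS18. At week 6, 3 of the 11 were higher in meat-fed dogs and 0 lower, among them RPL12 by 0.23 ± 0.07 (adjusted p = 0.033) and RPL4 by 0.20 ± 0.06 (adjusted p = 0.032). Their median was 0.14. Of all probes 6.59% passed at week 6 (2.87% higher). As a mean over weeks 3, 6 and 9, 0 of 11 passed, where 15.8% of all probes did, and the median was 0.04. An unadjusted p under 0.05 was found there for 3 of the 11, against 8654 of all 31691 probes. RPS4X, at 0.62, had a dye term second in size to that of RPS14 among the 20 ribosomal genes.

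Genes that work beside the ribosome did not pass at week 6, where 6.59% of all probes did. Of the translation factors, 3 of 35 listed were measured, with EEF1A1 at 0.19, EIF1 at -0.31 and EIF4A1 at -0.01 (adjusted p = 0.186, 0.072 and 0.954). Of the ribosome assembly genes MYC was at 0.20 and NPM1 at 0.21 (adjusted p = 0.251 and 0.133). The mitochondrial ribosomal proteins MRPL33 and MRPS35 both lay at -0.01. As a mean over weeks 3, 6 and 9, EIF1, which guards start codon choice, was lower by 0.21. There 0 of the assembly or mitochondrial genes passed, beside 15.8% of all probes.

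Markers of other blood cells differed between the diets on the same arrays. Of all probes 6.59% passed at week 6 (3.72% lower) and 0.312% at week 0. As a mean over weeks 3, 6 and 9, 15.8% passed (8.38% lower). At week 6, 6 of 6 measured platelet genes were lower in meat-fed dogs, with list means between -2.01 and -0.82 per array, among them GP1BA (-1.83), PTGS1 (-1.66) and CLU (-0.85). Of the cytotoxic T and NK genes 4 of 6 were lower, led by CCL5 (-1.27), with list means between -0.93 and -0.27. Of the monocyte genes 1 of 5 was lower (CYBB, -0.64) with list means between -0.71 and 0.05, and of the neutrophil genes 1 of 5 (CAMP, -2.58) with list means between -1.83 and 0.11. The T cell genes CD28 and CD4 had list means between -0.04 and 0.46, the B cell genes between -1.20 and 0.44 and the erythroid genes between -0.74 and 0.05, and 0 of 2 passed in each. At week 0 the platelet genes were already below 0 in 6 of 6, with a median of -0.61 and list means between -0.77 and -0.43 on the 3 arrays, although 0 of 6 passed. Of the other blood cell lists, the neutrophil gene ELANE was lower at week 0 (-0.31, adjusted p = 0.046) and 0 other genes passed. As a mean over weeks 3, 6 and 9, 6 of 6 platelet, 5 of 6 cytotoxic, 4 of 5 monocyte, 3 of 5 neutrophil and 1 of 2 erythroid genes were lower, and CD28 was higher (0.25). The part of cell makeup in the ribosomal values was not tested.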

How the data were processed

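Total RNA of dog PBMC was amplified from 200 ng and labelled with Cy3 or Cy5, per the labels' protocols. Per the file headers, each array was read with Agilent Feature Extraction 10.10.1.1, and the scanner files hold the median intensity and local background of each spot in both dyes. The deposited matrix gives for every probe and array a log2 ratio that the authors had normalised, with limma per the submitters' processing notes. Per array its correlation with the ratios recomputed here was 0.834 to 0.992, and it served as an alternative.

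Of 43803 non-control spots per array, 979 spots over all arrays that carried an outlier mark were left out, and 0 were saturated. Median signals were background-corrected by normexp with an offset of 50, because the files hold no mean signal, and loess was applied to the log2 ratios of each array. The filter asked for 7 or more of the 60 channels well above background, which left 31691 probes. Gene names came from RefSeq through the accession on the array and covered 2175 of 43603 probes. Ribosomal probes with other accessions stay unnamed, and no coordinates are given because RefSeq's assembly differs from that of the array design.

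With limma 3.58.1 (R 4.3.3, with version 1.17.8 of the data.table package for reading), 1 model was fitted to all 30 arrays and 31691 probes. It had a term for each group of diet and week within the 2 loops and a dye term per probe, which left 23 residual degrees of freedom. Tests were two-sided, with Benjamini-Hochberg adjustment within each of 13 comparisons and a threshold of 0.05. Single-array values are log2 ratios minus the fitted dye term, turned to meat over kibble or later over earlier week.

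The 9 genes, the gene lists and the tests were chosen with earlier results of these data known. By the naming rule the 9 genes, other ribosomal genes past the threshold, the 10 genes most like the mean of the 9 and up to 3 passing members per list are named. Cell markers named for the label check and listed genes beside the ribosome that did not pass were named after their values were seen. Replicate numbers were not used to pair arrays in the main model. Ratios of same-numbered week arrays correlated between -0.79 and 0.40. Between kibble 0/kibble 9 and kibble 3/kibble 6, 3 arrays correlated best with their own number, and 0 or 1 did in the other pairs of groups. These arrays share no sample, so whether the numbers follow dogs cannot be told from this. Alternatives changed the background correction, the normalisation, the filter, the dye term, the slide or replicate block, the moderation, the weights, the probe taken per gene and the arrays fitted, including leaving out each array. The code was tested on simulated data. Some of the other ribosomal protein genes are not reported here by name, and no sequences are shown.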

Additional observations from a re-analysis of the deposited data

Results flagged for a closer look

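Of 125 groups of 4 to 10 values tested for a single value far from the rest, 6 held one, and chance gives about 1 in 20. Among the ratios, RPLP0 at week 6 was at -0.1118 (meat over kibble) on meat 6/kibble 6 replicate 1, where the other 3 arrays lay between 0.1793 and 0.2085. RPL27 for week 9 over week 0 on meat was at 0.3668 on meat 9/meat 0 replicate 2, and the other 3 arrays lay between 0.0018 and 0.0606. On that array 9 of 9 genes were above 0. The other 4 are channel levels (log2 signal). RPS27A in meat at week 3 was at 16.551 on meat 6/meat 3 replicate 3, below the 16.7918 to 16.948 of the other 6 channels. On kibble 9/meat 9 replicate 2 the kibble channel was low both for RPSA (16.6771, others 16.9789 to 17.2299) and for RPLP0 (16.7943, others 17.0903 to 17.2958). RPL10A in kibble at week 9 was at 17.1273 on meat 9/kibble 9 replicate 1, above the 16.7462 to 16.9252 of the others. No difference between weeks or diets in the effect of the other factor passed its test for the 9 genes.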

How the results depend on the processing

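Counts are of the 9 genes called. At week 6 (4 called) 2 were called with the Feature Extraction processed signals, 2 with the slide as a fixed block, and 0 with median centring, without a dye term or on the diet arrays alone. For the mean of weeks 3, 6 and 9 (5 called) 3 were called with the Feature Extraction signals, 2 without a dye term, 1 on the diet arrays alone and 0 with median centring. The single call at week 3, RPS27A, was lost in 30 of 49 alternatives. Apart from the runs that left out a single array, the count fell to 0 under 13 alternatives: no background correction, Feature Extraction signals, median centring, the deposited values, scaling between arrays, no dye term, no filter, array weights, the replicate block, trended robust moderation, a dye term for each scan session, the 2 arrays that stand apart left out, and the diet arrays alone. The last 3 of those 13 were chosen after seeing the data. For week 9 against week 0 on kibble (0 called) median centring gave 8, and for week 6 against week 3 on kibble (0 called) array weights gave 3. The dye term (9 called) passed in 2 genes with the Feature Extraction signals, 5 with the deposited values and 5 on the diet arrays alone. With the Feature Extraction signals, which are already dye-normalised, it turned to -0.0068 for RPL10A, -0.025 for RPL3, -0.012 for RPLP0, -0.053 for RPL37, -0.055 for RPL4 and -0.011 for RPL7. The causes of the other changes were not tested, except that the diet arrays alone are fewer arrays. With the replicate block the counts were 4 at week 6, 5 for the mean and 0 at week 3, and the block changed no other call count. Leaving out each array gave 1 to 6 calls at week 6, 0 to 1 at week 3, 2 to 5 for the mean, 0 to 1 for each change on kibble, 0 to 0 in the other comparisons and 9 to 9 for the dye term. The 9 genes were well above background in every channel, so dim signal did not limit them.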

Other observations

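Second probes of 2 other ribosomal protein genes gave calls that their brightest probes did not. The second probe of RPL4, a large-subunit protein, was higher in meat-fed dogs as a mean over weeks 3, 6 and 9 (0.15 ± 0.04, adjusted p = 0.013 in limma), where its brightest gave 0.09 (adjusted p = 0.113). The second probe of RPL7A, also of the large subunit, was lower in that mean by 0.13 ± 0.04 (adjusted p = 0.049) and lower at week 9 than at week 0 on kibble (-0.24 ± 0.07, adjusted p = 0.014). Its brightest probe gave -0.08 (adjusted p = 0.149) and -0.04 (adjusted p = 0.658) there. RPS4X showed the same difference between probes as RPS14 in its dye term, with 0.62 for the brightest probe and 0.19 for the other.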
